A study of Mus musculus with 36 samples.

Results

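Evx2, Tfap2b, Pax5, Pax7, Pax8, En1 and En2 are 7 genes for DNA-binding proteins that pattern the isthmus, midbrain and hindbrain of the embryo, and they are followed here by name through 36 mouse brain libraries. They were taken from 53274 genes counted at all 3 ages. Evx2 and Tfap2b were selected on their measured rise in the forebrain and midbrain of 2-month knockout mice, so that contrast is given as a description with no test. The other members share their embryonic territory or their family, and all 7 were chosen with earlier results of these data known.

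The libraries came from mice in which the lysosomal protease gene Tpp1 was disrupted by gene targeting, a model of CLN2 disease (classical late infantile neuronal ceroid lipofuscinosis). Controls were siblings carrying at least 1 working Tpp1 allele. At ages of 1, 2 and 3 months, bulk RNA was sequenced from forebrain with midbrain (F/M) and from cerebellum (Cb), with 3 control and 3 Tpp1-/- libraries for each age and region. Controls at 2 and 3 months were wild type (wt), whereas at 1 month the control numbered 3 was Tpp1+/- in both regions and the other controls were wt. The disruption is present in every cell of the animal, each library is a whole dissected region, and the border along which F/M was parted from Cb is not given in the sources used here.

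The isthmus is the constriction between embryonic midbrain and hindbrain, and cells there secrete FGF8 and WNT1, which instruct their neighbours to form midbrain or cerebellum. The engrailed proteins En1 and En2 and the paired-box proteins Pax2, Pax5 and Pax8 keep that signalling centre going, while Pax7 marks the dorsal midbrain roof on its rostral side. In the adult, En1 is known from midbrain and hindbrain neurons, En2 from cerebellar granule cells, and Pax7 from neurons of the superior colliculus. Tfap2b, an AP-2 protein, belongs to the inhibitory interneuron lineage of the cerebellum, and Evx2, an even-skipped homeobox protein, is encoded beside the HoxD cluster and marks excitatory neurons of hindbrain and spinal cord.

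The 250 bases upstream of the start of Evx2 and of Pax5 are shown because these were the most alike pair of members across the F/M libraries, which include those used to choose Evx2, as given further on. They are RefSeq sequences of GRCm38.p6, written along each gene's own strand, and both genes lie on the minus strand. Capitals mark a TATAAA match for Evx2, at chr2:74659558-74659807, and a match to the AP-2 motif GCCNNNGGC for Pax5, at chr4:44710695-44710944.
Evx2: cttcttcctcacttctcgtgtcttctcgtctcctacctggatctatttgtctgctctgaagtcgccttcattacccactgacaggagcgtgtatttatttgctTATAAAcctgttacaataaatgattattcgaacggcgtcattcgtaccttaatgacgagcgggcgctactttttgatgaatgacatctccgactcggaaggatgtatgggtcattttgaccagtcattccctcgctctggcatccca
Pax5: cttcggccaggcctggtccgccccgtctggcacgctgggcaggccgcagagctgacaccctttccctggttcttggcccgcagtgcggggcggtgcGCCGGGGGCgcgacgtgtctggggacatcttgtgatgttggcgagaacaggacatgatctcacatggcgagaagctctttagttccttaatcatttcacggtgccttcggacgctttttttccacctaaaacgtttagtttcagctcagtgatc
Both strands were searched for GCCNNNGGC, TATAAA and the homeodomain core TAATTA, which do not overlap one another in these windows. Of 32851 promoters of the same length, 13.7% held the AP-2 motif, 12.4% held TATAAA and 4.8% held TAATTA. The Pax5 window had 58.8% GC and 19 CpG dinucleotides and the Evx2 window 45.6% GC and 14 CpG dinucleotides, against medians of 52.4% and 6 over all those promoters. Among the 6 members with an entry (all but En2), no other window held GCCNNNGGC or TATAAA.

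The members lie on 4 chromosomes of GRCm38, so most are not neighbours. En1 (chr1:120602418-120607992) and Tfap2b (chr1:19208914-19238576) are on the plus strand of chromosome 1, and Evx2 (chr2:74652991-74659557) and Pax8 (chr2:24420560-24475599) on the minus strand of chromosome 2. Pax5 (chr4:44524757-44710487) and Pax7 (chr4:139737062-139833528) are on the minus strand of chromosome 4, and En2 (chr5:28165694-28172166) is on the plus strand of chromosome 5. Antisense exons covered 7.184% and 1.412% of the counted bases of Pax5 and 6.055% of those of Pax8. The counting used strand at every age.

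Library totals ranged from 10609896 to 29942380 counted reads. Tpp1 itself was at 69.7 to 89.5 CPM (read counts scaled to a common library size) in wt, 46.6 to 55.9 in Tpp1+/- and 16.2 to 20.1 in Tpp1-/- libraries at 1 month. The 2-month wt libraries had 91.5 to 111 CPM where Tpp1-/- had 20.9 to 27.8, and those of 3 months had 42.1 to 56.0 where Tpp1-/- had 16.1 to 21.7, so no Tpp1-/- library overlapped a control of its age. Of 12 cerebellar neuron markers, all were higher in Cb than F/M controls at each age, and all 12 forebrain markers were lower. The sex labels of 4 libraries at 1 month and of 8 at 3 months went against Xist and the Y-linked genes. By these genes every library of 1 and 2 months was male, with 175 to 311 CPM of Y-linked genes and at most 9.32 of Xist. Every library of 3 months was female, with at least 487 CPM of Xist and at most 0.0423 of Y-linked genes. Sex and the age of 3 months thus cannot be told apart. Among the Cb libraries at 3 months, the control and the Tpp1-/- library numbered 3 stood apart, with 3 and 4 reads of Pax7 where the other 4 had 36 to 45.

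Scaled by the length of each gene's exons, En2 was the most abundant member in Cb controls, at 40.8 ± 1.59 CPM per kilobase at 2 months (SD, n = 3 here and below). Tfap2b followed at 9.06 ± 0.311, En1 at 2.1 ± 0.203, Evx2 at 0.281 ± 0.0553, Pax7 at 0.175 ± 0.0352, Pax5 at 0.165 ± 0.048 and Pax8 at 0.0193 ± 0.00296. In that order only the neighbours Pax7 and Pax5 overlapped between libraries. In F/M controls of the same age the order was Tfap2b at 0.482 ± 0.106, En1 at 0.298 ± 0.0362, En2 at 0.268 ± 0.04, Pax7 at 0.184 ± 0.0476, Pax5 at 0.108 ± 0.0271, Pax8 at 0.0273 ± 0.00635 and Evx2 at 0.00417 ± 0.00722 CPM per kilobase, and there only En1 and En2 overlapped. The libraries of Pax7 and Pax5 overlapped between the 2 regions, and those of En2 did not. Counting settings differed between ages, so levels at different ages are set side by side but were normalised separately.

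**Figure D1:**
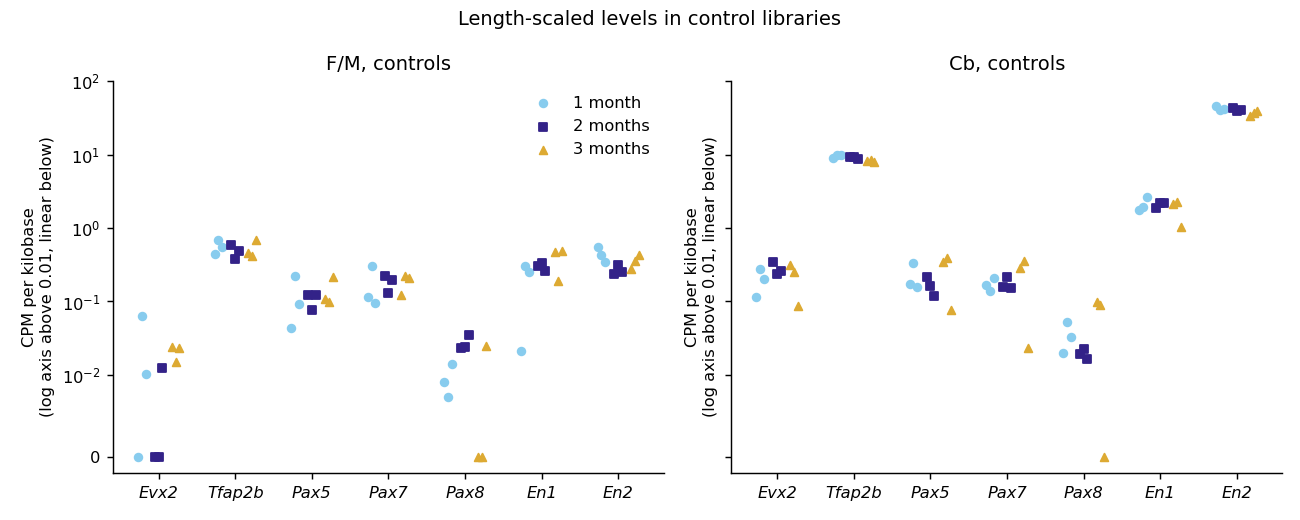
Length-scaled level (CPM per kilobase of exon, log axis above 0.01 and linear below) of each gene in the control libraries, F/M on the left and Cb on the right, 1 point per library and 1 marker per age. En2 and Tfap2b stand highest in Cb, at 36.5 to 42.4 and 8.17 to 9.49 on average, whereas Pax5, Pax7 and Pax8 overlap between the regions.

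Across all 12 groups of age, region and genotype, all 18 Cb libraries lay above all 18 F/M libraries for En2 and Tfap2b. En2 ranged from 118 to 173 CPM in Cb and from 0.595 to 2.46 CPM in F/M, and Tfap2b from 40.6 to 67.0 and from 1.79 to 6.25. En1 ranged from 1.67 to 7.01 CPM in Cb and from 0.0555 to 1.89 in F/M, which overlap slightly. Evx2 ranged from 0.364 to 1.44 CPM in Cb and from 0 to 0.505 in F/M. Pax5 (0.312 to 3.44 in Cb, 0.325 to 2.33 in F/M) and Pax7 (0 to 2.06 and 0.292 to 1.9) overlapped widely. When each gene's 12 group means were put in order, few of the 11 steps between neighbours exceeded the spread of the libraries, with 2 for En2, 1 each for Tfap2b, Pax7 and Pax8, and 0 for Evx2, Pax5 and En1.

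In F/M at 2 months, the contrast on which Evx2 and Tfap2b were chosen, all members but Pax8 had higher means in Tpp1-/- mice. Evx2 had 0, 0 and 1 reads in the control libraries (0, 0 and 0.0524 CPM) and 3, 8 and 2 in the Tpp1-/- libraries (0.149, 0.505 and 0.191 CPM). The groups did not overlap, but all 3 control libraries and 2 of the 3 Tpp1-/- libraries were at or under the detection limit of 3 counts. The ratio of the summed counts, 13 against 1 and scaled to depth, was 17.1 with an exact 95% interval of 2.57 to 727, which covers counting error only.

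Tfap2b was at 3.71, 2.37 and 3.09 CPM in controls and at 4.28, 6.25 and 4.5 CPM in Tpp1-/- libraries, a log2 fold change of 0.71 (SE 0.2). The lowest Tpp1-/- library was only slightly above the highest control. Since the rule used this contrast, Evx2 and Tfap2b were certain to differ in it.

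The members not chosen for this contrast were measured in the same libraries and are described without a test as well. En2 was at 0.846, 1.11 and 0.891 CPM in controls and at 1.84, 2.46 and 1.82 CPM in Tpp1-/- libraries (log2 fold change 1.1, SE 0.23). Pax5 was at 1.08, 0.676 and 1.1 against 1.44, 2.33 and 2.2 CPM (1.03, SE 0.33). En1 was at 0.799, 0.869 and 0.681 against 1.05, 1.89 and 1.53 CPM (0.88, SE 0.34). In each of these genes every Tpp1-/- library was above every control. Pax7 was at 1.32, 0.773 and 1.15 against 1.3, 1.58 and 1.72 CPM (0.47, SE 0.29), and its groups overlapped. The groups of 5 of the 6 members that passed the low-count filter were thus apart, where 18.3% of 17229 genes were, and 3 members (Evx2, Tfap2b and En2) met an adjusted p under 0.1 with at least a 1.5-fold change, where 0.737% of genes did. Nothing is read from these counts, since the rule used this contrast.

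Markers of other cells moved in the same F/M libraries. The marker lists were fixed with earlier results of these data known, so their shares are no independent support. Of 13 midbrain and thalamus markers tested, 12 had positive log2 fold changes (median 0.41, against 0 over all genes), and 7 were higher in Tpp1-/- libraries without overlap. Their summed level, over 14 markers, was 257, 266 and 267 CPM in controls and 304, 336 and 323 CPM in Tpp1-/- mice. Choroid plexus markers had the highest median of the marker lists, 0.84, with 14 of 14 positive and 9 meeting the criterion, while their summed levels of 255, 650 and 401 CPM in controls and 766, 559 and 680 CPM in Tpp1-/- libraries overlapped. Sums of the dopamine and serotonin neuron markers were 58.9 to 62.6 CPM in controls and 87.4 to 90.2 CPM in Tpp1-/- libraries, and those of the cerebellar neuron markers 90.1 to 91.1 and 100 to 104 CPM. Forebrain markers summed to 993 to 1020 CPM in controls and to 882 to 975 CPM in Tpp1-/- libraries, lower without overlap. The part of these markers in the members' levels was not tested. In such bulk samples, more or fewer cells of a type and more or less RNA per cell cannot be told apart.

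**Figure D2:**
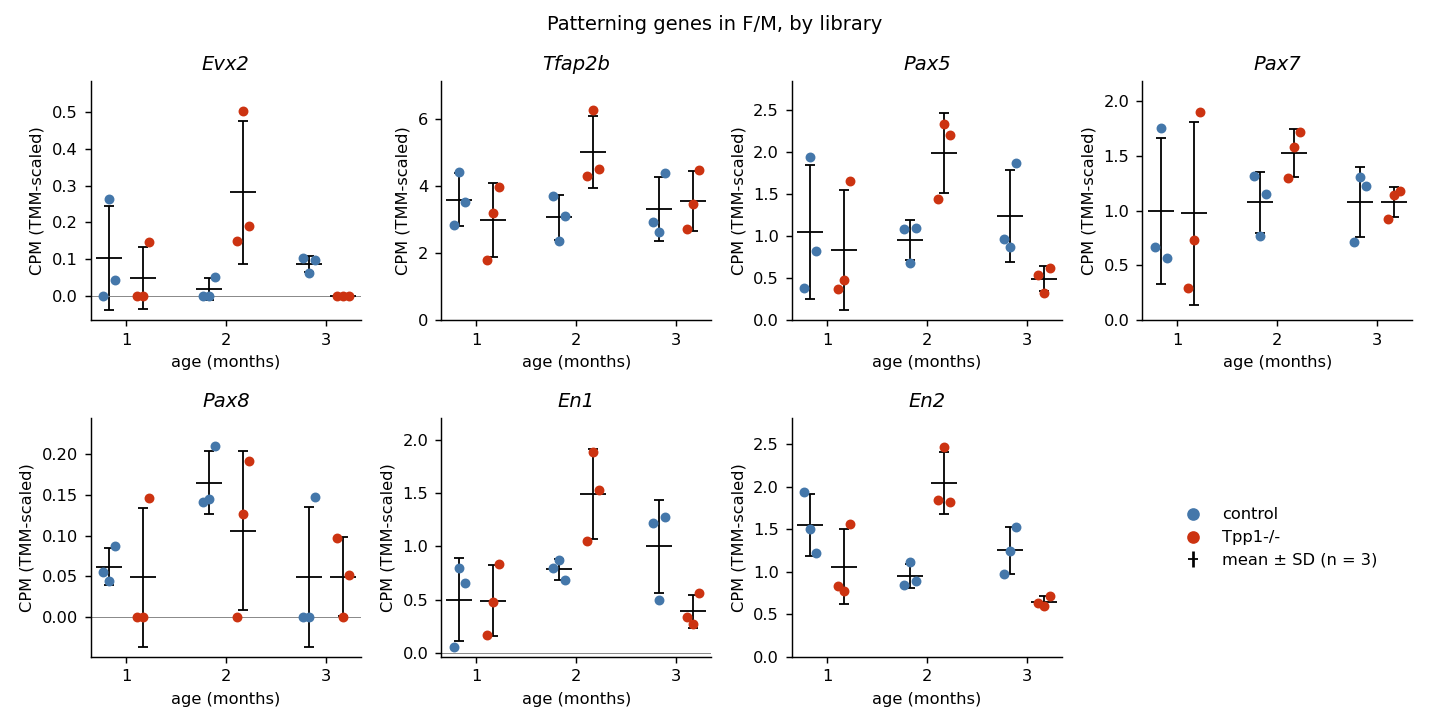
CPM in F/M of each gene by age, controls in blue and Tpp1-/- in red, with 1 point per library and the mean and SD of 3 libraries in black, on axes of their own. At 2 months the Tpp1-/- libraries sit above the controls for all but Pax7 and Pax8, and at 3 months they sit below them for Evx2, Pax5 and En2.

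The same comparison in F/M of 3-month mice, which the rule for Evx2 and Tfap2b did not use, gave no called member. En2, known for its role in the cerebellum, was at 0.968, 1.24 and 1.53 CPM in controls and at 0.63, 0.595 and 0.72 CPM in Tpp1-/- libraries. Every Tpp1-/- library was below every control, yet the change was not called (log2 fold change -0.94, SE 0.22, adjusted p = 0.148 by edgeR's quasi-likelihood test over all genes).

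Pax5 was at 0.968, 0.87 and 1.87 CPM against 0.533, 0.325 and 0.617 CPM, again without overlap (-1.33, SE 0.63, adjusted p = 0.844). En1 was at 1.22, 0.497 and 1.28 CPM against 0.339, 0.27 and 0.566 CPM, and its groups overlapped through the control numbered 2 (-1.37, SE 0.52, adjusted p = 0.666). Tfap2b (0.09, SE 0.23) and Pax7 (0, SE 0.71) were centred on no difference, both with adjusted p = 1. Evx2 had 2, 1 and 2 reads in controls and 0 in each Tpp1-/- library, so both groups were at or under the limit of 3 counts and no fold is given.

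Of the 6 members tested in F/M at 3 months, edgeR called 0, as did DESeq2 and limma-voom, and 3 (En2, En1 and Evx2) had an unadjusted p under 0.05. Other settings of edgeR did call members, Pax5 and En1 without the filter, and Pax5, En1 and En2 with the 6 libraries alone. Over all genes 0.464% were called. The groups of 3 members were apart, against 24.1% of genes apart in either direction, but 1 of these was Evx2, at or under the limit of 3 counts in every library and past the filter only through Cb. The other 2, Pax5 and En2, were lower in Tpp1-/- mice. The midbrain and thalamus markers summed to 330, 324 and 330 CPM in controls and 299, 277 and 293 CPM in Tpp1-/- libraries, with 7 of 14 markers lower without overlap and 0 called. Cerebellar neuron markers summed to 96.8 to 100 CPM against 86.8 to 93.5, and forebrain markers to 971 to 1060 CPM against 856 to 969, both lower in Tpp1-/- libraries without overlap. The part of these markers in the members' levels was not tested.

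At 1 month the F/M groups overlapped for all 6 members tested. Tfap2b was at 2.83, 4.41 and 3.52 CPM in controls and 1.79, 3.19 and 3.96 CPM in Tpp1-/- libraries (log2 fold change -0.3, SE 0.23). En2 was at 1.94, 1.5 and 1.22 against 0.833, 0.775 and 1.56 CPM (-0.56, SE 0.29), and for both genes the lowest value was in a Tpp1-/- library. Evx2 had 0, 6 and 1 reads in controls and 0, 0 and 3 in Tpp1-/- libraries, a ratio of 0.403 with an exact 95% interval of 0.0673 to 1.77. The remaining log2 fold changes were -0.4 for Pax5, -0.08 for Pax7 and -0.14 for En1, each with an SE of 0.57 or more. By edgeR 0 members were called (adjusted p = 1 for each), 0 had an unadjusted p under 0.05, and DESeq2 and limma-voom called 0. Over all genes 0.0112% were called and 14.8% did not overlap.

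In Cb at 2 months, a region that the rule for Evx2 and Tfap2b did not use, 3 members fell. Pax7, the paired-box gene of the dorsal midbrain, fell to the detection limit. It had 16, 28 and 18 reads in the control libraries (0.92, 1.27 and 0.899 CPM) and 2, 0 and 0 reads in the Tpp1-/- libraries (0.0728, 0 and 0 CPM). Every control had many reads and every Tpp1-/- library was under the limit of 3, so the groups were far apart. The summed counts, 62 against 2, gave 34.1-fold more in controls, with an exact 95% interval of 9.05 to 288 for counting error only. The fitted log2 fold change was -4.82 (SE 0.58, adjusted p = 3.22e-05), a size that depends on the prior count. It ranged from -7.28 to -4.32 when single libraries were left out, and was -7.28 without the Tpp1-/- library numbered 1, the only one with reads.

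En1, an engrailed gene of midbrain and hindbrain neurons, also fell. It was at 4.89, 5.83 and 5.79 CPM in controls and at 1.67, 3.5 and 2.44 CPM in Tpp1-/- libraries, 0.454 times the control level (log2 fold change -1.14, SE 0.21, adjusted p = 0.00391). The highest Tpp1-/- library was below the lowest control.

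Pax5, which with Pax2 helps to set up the isthmus, fell to 0.396 times the control level. Its libraries were at 1.9, 1.45 and 1.05 CPM in controls and at 0.91, 0.363 and 0.312 CPM in Tpp1-/- mice (log2 fold change -1.34, SE 0.36, adjusted p = 0.0665). The groups did not overlap, but the Tpp1-/- library numbered 1 came near the lowest control. This call was lost without the Cb control numbered 1 (-1.13, adjusted p = 0.254) or 2 (-1.34, 0.19) and without the Tpp1-/- library numbered 2 (-1.1, 0.301) or 3 (-1.13, 0.24). Without the Tpp1-/- library numbered 1, the highest of its group, the value was -2.07 (adjusted p = 0.00897).

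Evx2 was at 1.44, 0.995 and 1.1 CPM in controls and at 0.8, 0.59 and 0.625 CPM in Tpp1-/- libraries, without overlap, and did not pass the test (-0.76, SE 0.32, adjusted p = 0.393). The F/M value of Evx2 at this age was the one used to choose it, so no test of this gene between the regions is given at 2 months. The most abundant members did not differ in this way. En2 was at 151, 141 and 142 CPM against 121, 142 and 149 CPM (-0.08, SE 0.07, adjusted p = 0.862), and Tfap2b at 58.2, 58.9 and 55.2 against 49.8, 67.0 and 58.5 CPM (0.02, SE 0.11, adjusted p = 0.981). For both, the Tpp1-/- libraries lay on either side of the controls.

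Pax7, En1 and Pax5 were the members that fell, 3 of the 6 tested, and 0 rose, where 2.05% of 17229 genes were called (43 higher and 310 lower). The members were chosen with earlier results of these data known, so their larger share is no independent support. DESeq2 and limma-voom also called 3. The groups of 4 members were apart, all lower, against 18.1% of genes in either direction. Pax7 and En1 were called without each library in turn, with adjusted p between 1.31e-05 and 0.000395 for Pax7 and between 0.000531 and 0.0277 for En1.

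**Figure D3:**
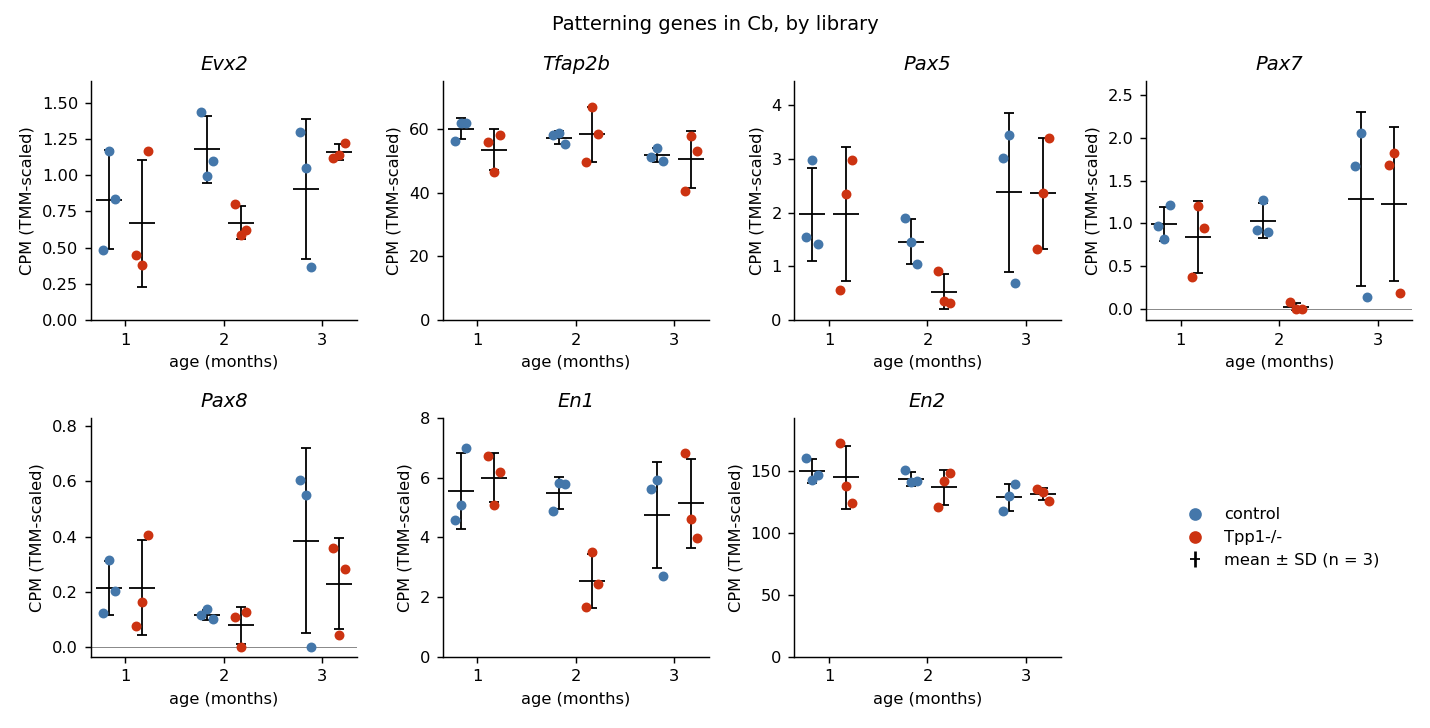
CPM in Cb of each gene by age, controls in blue and Tpp1-/- in red, with 1 point per library and the mean and SD of 3 libraries in black, on axes of their own. At 2 months the Tpp1-/- libraries of Pax7 lie at 0 to 0.0728 CPM against 0.899 to 1.27 in controls, those of Pax5 and En1 lie below their controls, and those of Tfap2b and En2 lie among them.

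Markers of midbrain and thalamus moved with these members in the same Cb libraries. Their sum over 14 genes was 201, 255 and 226 CPM in controls and 106, 97.9 and 111 CPM in Tpp1-/- mice at 2 months. Of the 13 that passed the filter 9 fell and 0 rose, with a median log2 fold change of -2.96 against 0 over all genes, and the groups of those 9 did not overlap. The list was fixed with earlier results of these data known, so these counts are no independent support. Gata3, a transcription factor of inhibitory midbrain neurons, had 17, 37 and 21 reads in controls and 0 in every Tpp1-/- library (adjusted p = 1.27e-05), and Pou4f3, which was not tested, had 3, 8 and 2 reads against 0.

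Shox2, a homeobox gene of thalamic and midbrain neurons, fell by 5.55 on the log2 scale (SE 0.34, adjusted p = 4.73e-09). Pou4f2, a POU-homeodomain gene, had a log2 fold change of -3.89 (SE 0.46, adjusted p = 2.49e-05). Lhx9, a LIM-homeodomain gene, had -3.49 (SE 0.18, adjusted p = 3.48e-10) and Cbln2, a synaptic organiser, had -3.33 (SE 0.22, adjusted p = 1.86e-08). The 4 markers not called were between -0.41 and 0.16. Pax7 and the marker genes thus differed between the same libraries.

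The other marker lists were read in the same libraries. The summed choroid plexus markers were 1020 to 1320 CPM in controls and 1680 to 1860 in Tpp1-/- libraries, with 8 of 14 higher. The summed cerebellar neuron markers were 7300 to 7380 and 7510 to 8330 CPM with 0 of 12 called, and 2 of 12 forebrain markers (Emx2 and Drd2) fell, with a median log2 fold change of -0.25 over the list. The dopamine and serotonin neuron markers had 0 of 6 called, with a median of -0.56, 1 of 6 above 0 and 2 lower without overlap. The meningeal markers had 0 called, and none of 13 brainstem Hox markers passed the filter. Those Hox markers summed to 0.0452 to 0.288 CPM in controls and 0.318 to 1.13 CPM in Tpp1-/- libraries, apart but near the detection limit. The part of any of these cells in the levels of Pax7, En1 and Pax5 was not tested.

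**Figure D4:**
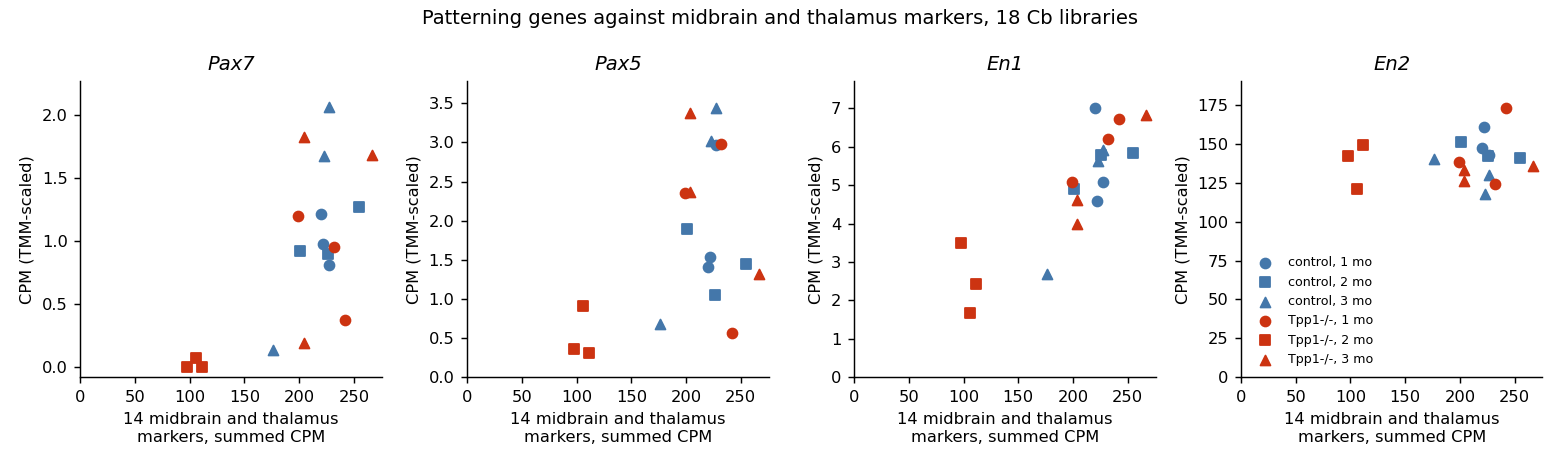
CPM of Pax7, Pax5, En1 and En2 (vertical) against the summed CPM of 14 midbrain and thalamus markers (horizontal) in the 18 Cb libraries, coloured by genotype with 1 marker shape per age. The 3 Tpp1-/- libraries of 2 months stand alone at 97.9 to 111 CPM of markers, with low Pax7, Pax5 and En1 and with En2 at the level of the others. Low values also occur at higher marker sums. Pax7 is at 0.137 and 0.188 CPM in the 3-month control and Tpp1-/- libraries numbered 3 (176 and 204 CPM of markers). Pax5 is at 0.563 CPM in the 1-month Tpp1-/- library numbered 1 (242 CPM). The marker list was fixed with earlier results of these data known.

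At 1 month the knockout had no called effect on any member in Cb. Pax7 was at 0.972, 0.811 and 1.21 CPM in controls and 0.375, 1.2 and 0.949 CPM in Tpp1-/- libraries, and En1 at 4.58, 5.09 and 7.01 against 6.72, 5.09 and 6.19 CPM. The groups of both genes overlapped. Log2 fold changes of the 6 members ran from -0.3 (Evx2 and Pax7) to 0.11 (En1). By edgeR 0 were called, with adjusted p from 0.778 to 0.996, 0 had an unadjusted p under 0.05, and DESeq2 and limma-voom called 0. Of all genes 0.0112% were called and 7.97% did not overlap. The midbrain and thalamus markers summed to 220 to 227 CPM in controls and 199 to 242 CPM in Tpp1-/- libraries.

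At 3 months the Cb groups overlapped for every member. Pax7 was at 1.67, 2.06 and 0.137 CPM in controls and 1.68, 1.82 and 0.188 CPM in Tpp1-/- libraries, so that the library numbered 3 was low in each genotype. En1 was at 5.62, 5.92 and 2.69 against 6.82, 4.61 and 3.99 CPM and Pax5 at 3.02, 3.44 and 0.683 against 1.32, 2.37 and 3.38 CPM. For these genes the control numbered 3 was the lowest of its group, as it was for Evx2, at 0.364 CPM where the other 2 were at 1.3 and 1.05. Its summed midbrain and thalamus markers were 176 CPM against 223 and 227, and its summed dopamine and serotonin neuron markers 16.4 against 84.9 and 80.0. In the Tpp1-/- library numbered 3, also low in Pax7, these sums were not the lowest alone. They were 204 CPM against 267 and 204, and 29.1 CPM against 21.6 and 22.4. The brainstem Hox markers summed to 4.46, 4.08 and 1.23 CPM in the 3-month Cb controls and to 0.519, 0.508 and 0.516 CPM in the Tpp1-/- libraries, apart in the other direction from 2 months.

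Log2 fold changes in Cb at 3 months ran from -0.05 (Pax7) to 0.35 (Evx2). By edgeR 0 members were called (adjusted p from 0.962 to 0.999), 0 had an unadjusted p under 0.05, and DESeq2 and limma-voom called 0. Over all genes 0.859% were called and 8.67% did not overlap. With both libraries numbered 3 left out, an alternative chosen after seeing the data, Evx2 was at -0.06 (SE 0.3, adjusted p = 0.959), En1 at -0.01 (SE 0.28, adjusted p = 0.995), and 0 members were called.

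**Figure D5:**
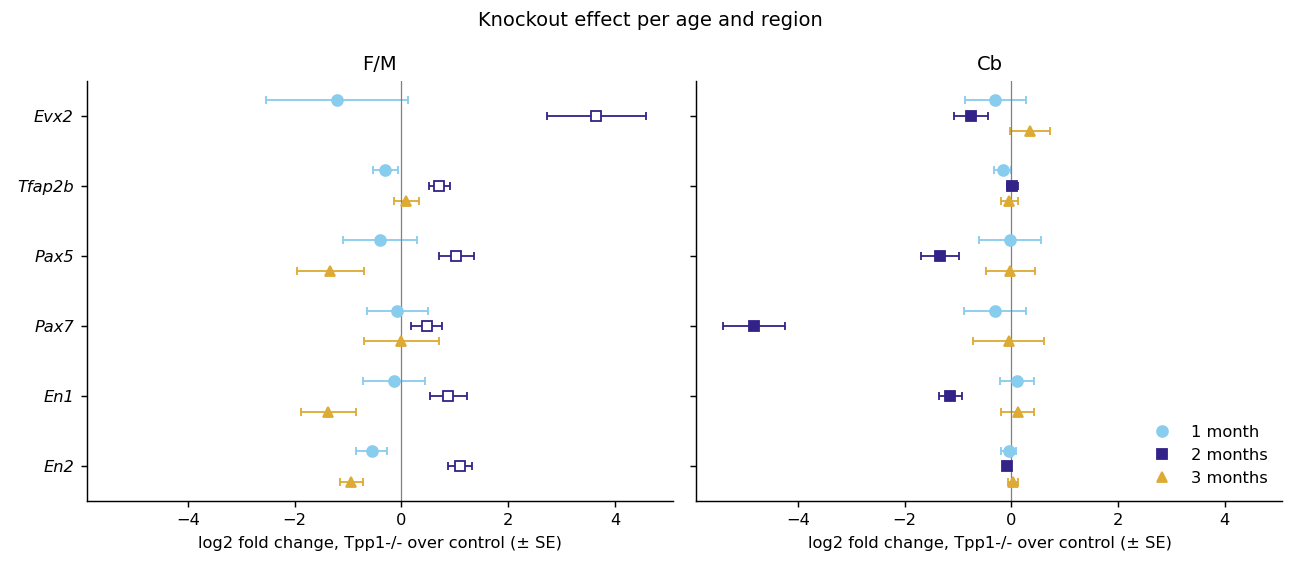
Log2 fold change of Tpp1-/- over control with its SE for the 6 genes that passed the filter, F/M on the left and Cb on the right, with 1 marker per age. Open squares mark the F/M contrast of 2 months, which was used to choose Evx2 and Tfap2b and is not tested, and Evx2 in F/M at 3 months is not drawn because both groups were at or under 3 counts. In Cb at 2 months the values are -4.82 for Pax7, -1.34 for Pax5 and -1.14 for En1.

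Whether the 2-month effect in Cb differed from that of the other ages was tested in 1 model of all 36 libraries. By sex-linked genes the 2-month libraries were male and the 3-month libraries female. Age and sex therefore cannot be told apart in the comparison of 2 with 3 months. For Pax7 the log2 difference between the effects at 2 and 3 months was -4.8 (SE 1.34, adjusted p = 0.0851), which passed the threshold, and that between 2 and 1 month was -4.53 (SE 1.39, adjusted p = 0.168), which did not. With both 3-month Cb libraries numbered 3 left out the latter value was -4.53, and no call is taken from it because these libraries were singled out for their low Pax7. When single Cb libraries were left out, the value between 2 and 1 month ranged from -7.12 to -4.02 and was called in 3 of 18 settings.

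The Pax7 difference between 2 and 3 months was lost without any one of the 6 Cb libraries of 2 months (-4.87, -4.61 and -4.89 without controls 1, 2 and 3, and -7.39, -4.29 and -4.45 without Tpp1-/- libraries 1, 2 and 3). It was also lost without the 3-month Cb control numbered 3 (-4.26) and the 3-month Tpp1-/- library numbered 1 (-4.51) or 2 (-4.42), with adjusted p from 0.107 to 0.286 over these 9. En1 gave -1.24 (SE 0.45, adjusted p = 0.334) against 1 month and -1.25 (SE 0.45, adjusted p = 0.352) against 3 months, and Pax5 -1.33 (SE 0.84 and 0.83, adjusted p = 0.638 and 0.925).

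The effect at 2 months therefore differed by test from that at another age for 1 member against 3 months and for 0 members against 1 month, where edgeR called 1.44% and 1.28% of 18322 genes. Against 1 month 2 members had an unadjusted p under 0.05, and DESeq2 called 1.

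The regional difference in control mice, tested at 1 and 3 months, was the largest signal of En2 and Tfap2b. En2 was 97.9-fold higher in Cb at 1 month (161, 143 and 147 against 1.94, 1.5 and 1.22 CPM, adjusted p = 5.13e-13) and 103-fold at 3 months (118, 130 and 140 against 0.968, 1.24 and 1.53 CPM, adjusted p = 4.38e-13). Tfap2b was 16.6-fold higher at 1 month (adjusted p = 1.16e-10) and 15.5-fold at 3 months (adjusted p = 1.19e-09). No F/M control came near a Cb control in either gene.

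En1 was 10.5-fold higher in Cb at 1 month (4.58, 5.09 and 7.01 against 0.0555, 0.793 and 0.652 CPM, adjusted p = 6.48e-06) and 4.61-fold at 3 months (adjusted p = 0.000191). Evx2 was higher by log2 fold changes of 2.86 (SE 0.78, adjusted p = 0.00601) and 3.26 (SE 0.59, adjusted p = 0.000587), on 63 reads in Cb against 7 in F/M at 1 month and 59 against 5 at 3 months. The corresponding ratios were 7.48 (3.43 to 19.4) and 10.1 (4.1 to 32.3) by exact 95% counting intervals. Evx2 passed the low-count filter only through Cb, the region where it is high, so it had to differ and its call is no support. Its 1-month value ranged from 2.39 to 4.81 when single libraries were left out, and was 4.81 without the F/M control numbered 2, which held 6 of the 7 reads. The same 4 of 6 members, Evx2 included, were called at both ages by edgeR, and DESeq2 and limma-voom also called 4, where 36.9% of genes were called at 1 month and 37.7% at 3 months.

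Pax7 did not differ between regions in the test (0, SE 0.56, adjusted p = 0.995 at 1 month and 0.26, SE 0.69, adjusted p = 0.779 at 3 months). Without both Cb libraries numbered 3 the 3-month value was 0.79, which the choice of those libraries for their low Pax7 pushes upwards, so it is given without a test. For Pax5 the log2 difference was 0.85 (SE 0.62, adjusted p = 0.265) at 1 month and 0.92 (SE 0.51, adjusted p = 0.147) at 3 months. Same-numbered control libraries of the 2 regions deviated together at 1 month, which does not show that they came from 1 mouse. With the replicate number as a block the Pax5 difference was 0.96 (SE 0.33, adjusted p = 0.0243). It was also called at 1 month without the filter (0.85, adjusted p = 0.0154) and without the F/M control numbered 2 (1.64, adjusted p = 0.0797). The sex label as a covariate also gave a call (0.98, adjusted p = 0.0823), but all libraries of that age were male by sex-linked genes. At 3 months the Pax5 difference was called without the filter (0.92, adjusted p = 0.00649), without the F/M control numbered 3 (1.36, adjusted p = 0.0874) and without the Cb control numbered 3 (1.36, adjusted p = 0.0125).

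At 2 months, whose F/M controls the selection used, the regional log2 differences were 4.23 for Tfap2b, 0.61 for Pax5, -0.06 for Pax7, 2.8 for En1 and 7.24 for En2, as a description. Evx2 had 69 reads in the Cb and 1 in the F/M controls, a ratio of 70.8 with an exact 95% interval of 12.3 to 2840. There 4 members met the criterion, beside 39.3% of all genes. Nothing is read from this count, since it includes Evx2 and Tfap2b, which were chosen with these F/M controls.

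The difference of the knockout effect between regions, Cb minus F/M, was not called for any of the 6 members at 1 or 3 months. At 1 month 0 of 17916 genes (0%) were called by edgeR and 347 had an unadjusted p under 0.05, among them 0 members, and DESeq2 and limma-voom called 0 members. At 3 months 0.00581% of genes were called and 3 members had an unadjusted p under 0.05, with log2 differences of 1.49 for En1 and 0.96 for En2 (SE 0.24, adjusted p = 0.724). The third was Evx2, whose F/M groups were at or under 3 counts, so its size is not given, and DESeq2 and limma-voom called 0. At 2 months, as a description, the differences were -5.29 for Pax7, -4.42 for Evx2 (a size set by the prior count, on 1 read in the F/M controls), -2.37 for Pax5, -2.02 for En1, -1.18 for En2 and -0.69 for Tfap2b, and 5 members met the criterion beside 2.97% of genes. Nothing is read from this count, since the difference contains the F/M contrast on which Evx2 and Tfap2b were chosen. All 6 differences were negative, the F/M levels being higher and the Cb levels lower or level in Tpp1-/- mice.

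Pax8, known above all from thyroid and kidney, did not pass the filter at any age. Its counts in F/M were 1, 1 and 2 in controls against 0, 0 and 3 in Tpp1-/- libraries at 1 month, 3, 3 and 4 against 0, 2 and 2 at 2 months, and 0, 0 and 3 against 2, 0 and 1 at 3 months. In Cb they were 3, 7 and 6 against 2, 3 and 9, then 2, 3 and 2 against 3, 0 and 2, then 13, 12 and 0 against 9, 1 and 6. Each ratio of Tpp1-/- to control had an interval that included 1, so no difference was detectable at this depth. In controls the ratio of Cb to F/M was 3.32 (1.07 to 13.7) at 1 month, 0.718 (0.232 to 2.09) at 2 months and 7.15 (2.18 to 37) at 3 months, by exact 95% intervals for counting error only.

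The rest of the isthmus network was followed through 3 lists. The signals and their feedback genes (14, of which 10 passed the filter) had 0 called in any tested knockout comparison, with median log2 fold changes in Cb of 0.06, -0.07 and -0.08 from the youngest to the oldest age. The inductive signals were hardly present in the adult brain, with at most 1 read per library for Fgf8 and Wnt1 and 4 for Fgf15. Between the regions, the FGF receptor gene Fgfr1 was higher in Cb by 1.18 at 1 month (SE 0.12, adjusted p = 4.57e-07) and 1.2 at 3 months (SE 0.13, adjusted p = 3.1e-06). Cnpy1, which encodes a helper of FGF signalling, was higher by 8.76 (SE 0.3, adjusted p = 1.76e-12) and 9.71 (SE 0.22, adjusted p = 8.62e-13). Dusp6, an FGF-induced phosphatase gene, was lower by log2 values of -1.51 (SE 0.17, adjusted p = 1.49e-06) and -1.92 (SE 0.11, adjusted p = 2.49e-09). The other signal genes were not called between regions.

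The other transcription factors of the territory (22, of which 17 or 18 passed) had 1 lower and 0 higher in Cb at 2 months, and 0 called in the other tested knockout comparisons. That gene was Tfap2d, an AP-2 gene of the midbrain roof, with 31, 88 and 72 reads in controls and 1, 1 and 0 in Tpp1-/- libraries (log2 fold change -6.42, SE 0.53, adjusted p = 2.83e-07). The median log2 fold change of the list was 0.06 there, with 5 of 18 genes lower and 3 higher without overlap between groups. Tfap2d was, like Pax7, at or under 3 counts in all the Tpp1-/- libraries of Cb at 2 months.

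Between regions this list had 9 higher and 7 lower in Cb controls at 1 month, and 10 higher and 6 lower at 3 months. Pax2, the partner of Pax5 at the isthmus, was higher by 7.23 (SE 0.46, adjusted p = 2.7e-09) and 5.41 (SE 0.43, adjusted p = 1.03e-07), and Tfap2a, the AP-2 relative of Tfap2b, by 4.99 (SE 0.35, adjusted p = 8.31e-09) and 5.59 (SE 0.3, adjusted p = 1.67e-09). Gbx2, which opposes Otx2 at the isthmus but is expressed in the adult thalamus, was at -6.3 (SE 0.52, adjusted p = 5.97e-08) and -6.27 (SE 0.43, adjusted p = 2.12e-08). The forebrain factor Sp8 was at -4.77 (SE 0.48, adjusted p = 5.98e-07) and -4.68 (SE 0.49, adjusted p = 6.24e-06). The fifth gene was Gbx1 at 1 month, at -5.18 (SE 0.59, adjusted p = 2.38e-06), and Pax3 at 3 months, at 5.18 (SE 0.34, adjusted p = 1.25e-08).

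The HoxD cluster beside Evx2 was nearly silent. Of 11 genes of the cluster and its flanks, only the flanking Lnpk and Mtx2 passed the filter, and the Hoxd genes had at most 7 reads in any library. Neither flank was called in a tested knockout comparison, and Lnpk was lower in Cb at 3 months (-0.7, SE 0.18, adjusted p = 0.00432). Evx2 in Cb, with 7 to 28 reads per library, was thus counted in libraries where its Hoxd neighbours had few or no reads.

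The genes whose pattern was most like each member were ranked by Pearson's r of log2 CPM, centred within each age. Across all 36 libraries both regions enter r. En2 was most like Cnpy1 and Cbln1 (both 0.995), Tfap2b like Mtus1 (0.993) and Syt2 (0.992), En1 like Irx2 (0.94) and Ebf3 (0.925), and Evx2 like Gm37477 (0.937) and Ebf3 (0.933). Pax7 was most like Gata3 (0.88) and Tal1 (0.868), and Pax5 like Slc6a4 (0.836) and Tph2 (0.736), genes of serotonin neurons.

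Across the 18 F/M libraries alone, centred on the 6 of each age, Evx2 and Pax5 were among each other's 3 most alike genes (r 0.896), and it is their promoters that are printed above. Pax5 was also like Syt2 (0.938) and Slc6a4 (0.881), and En1 like Vamp1 (0.855) and Pax5 (0.831). Tfap2b was like Dennd1b (0.913) and Ebf3 (0.886), En2 like Dao (0.828), and Pax7 like Slc6a4 (0.771). These values include the 6 F/M libraries of 2 months on which Evx2 and Tfap2b were chosen, so the likeness of Evx2 and Pax5, and with it the choice of promoters shown, draws in part on the selected rise. The libraries share the dissection of each age and region, and Evx2 rests on 0 to 8 reads per F/M library.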

How the data were processed

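Single-end 50-nucleotide reads of a stranded mRNA kit were aligned by the authors with STAR 2.5.2b to mm10 and counted per gene with featureCounts (1.6.3 at 1 month, 1.6.2 at 2 and 3 months, per the file headers) on GENCODE M21, M16 and M18, with strand setting 1, 2 and 1 and with reads that map to several places let in. The deposited values are raw counts for 36 libraries. Groups came from the sample labels. Whether libraries of 1 number in both regions come from 1 mouse is not stated, so p-values measure the spread between these samples. From the counts, TMM-scaled CPM was computed, and edgeR 4.0.16 (R 4.3.3) was fitted by quasi-likelihood to the 12 libraries of an age, after its default filter on low counts. Benjamini-Hochberg adjustment ran over all genes, with calls at adjusted p under 0.1 and, except for differences between effects, at least 1.5-fold. DESeq2 1.42.0, limma-voom (limma 3.58.1), other scalings, no filter, sex label, replicate block, the 6 libraries alone and leaving out each library were the alternatives. The edgeR, DESeq2 and limma-voom fits of each age were run on simulated data for the knockout effects and their difference between regions. The regional difference, the model of 36 libraries and the other alternatives were not.

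Members and lists were chosen with earlier results of these data known. All 7 members are named. From each fixed list the called genes of a tested comparison are named, up to 5 by size, together with the 3 genes most like each member by Pearson's r, of which 1 to 3 are printed. Fgf8, Wnt1, Fgf15, Pou4f3 and Mtx2 were named after their values were seen. A detection limit of 3 counts per library was used. Replicate numbers come from the sample titles. The deviations of same-numbered libraries from their group means correlated above 0.1 in every pair only for F/M against Cb controls at 1 month (0.113 to 0.183, mean 0.138). The numbers were taken as paired there. The mean for other numbers, -0.069, is no comparison, since centring on the group means ties it to the mean for the same numbers. Same-numbered F/M control and Tpp1-/- libraries of 1 month, from different mice, had a mean of 0.122. The correlation therefore does not show pairing by mouse.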

Additional observations from a re-analysis of the deposited data

Results flagged for a closer look

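For Pax7 the knockout effect in Cb differed between 2 and 3 months by -4.8 on the log2 scale (adjusted p = 0.0851 by edgeR over all genes), a difference that was lost without any one of 9 libraries. Age and sex cannot be told apart in it, since the 2-month libraries were male and the 3-month libraries female by sex-linked genes.

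For other members every Tpp1-/- library was above every control in 1 group and below every control in another, and these differences were not tested. At 2 months the effect in F/M exceeded that in Cb by 2.37 for Pax5 and 2.02 for En1. The fitted value for Evx2, 4.42, rests on 0, 0 and 1 reads in the F/M controls, is set in size by the prior count, and as Cb minus F/M ranged from -6.25 to -3.66 when single libraries were left out, so no size is read from it. In F/M the effect at 2 months exceeded that at 3 months by 2.36 for Pax5 and 2.04 for En2, between ages that also differed in sex by sex-linked genes. All of these rest on the F/M contrast at 2 months, in which Evx2 was selected.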

How the results depend on the processing

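The 3 members called in Cb at 2 months were 3 under RLE size factors, no filter, DESeq2, limma-voom, the replicate block and the 6 libraries alone. Read depth limits Evx2, Pax8 and, in Tpp1-/- Cb at 2 months, Pax7, which lie at a few reads per library, and the samples of 3 limit every p. The sex labels, which went against sex-linked genes in 12 libraries, were used as given in 1 alternative and could not be fitted at 2 months, where all were labelled male. By sex-linked genes each age was of 1 sex, so that alternative does not adjust for sex.

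Counts of members called moved by more than 1.5 times in few settings, and the cause was not tested unless stated. In F/M at 2 months, a description, 3 became 5 without the filter and 0 with the 6 libraries alone, where fewer samples entered. In F/M at 3 months 0 became 2 without the filter (Pax5 and En1) and 3 with the 6 libraries alone (Pax5, En1 and En2). For the regional difference at 3 months 4 became 7 without both Cb libraries numbered 3, when Pax8 passed the filter too. For the Cb effect at 2 months minus 1 month, 0 became 2 without the filter, 1 under DESeq2, 1 without both 3-month Cb libraries numbered 3, and 2 with the replicate block. The libraries numbered 3 were singled out for their low Pax7, so calls of Pax7 gained without them are no support. Minus 3 months, 1 became 2 without the filter and 2 with the block.

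Where the replicate numbers were not taken as paired, correlations of same-numbered libraries ranged from -0.0721 to 0.205. The replicate block called Pax7 (-4.52) and En1 (-1.27) for 2 minus 1 month and, beside Pax7, En1 (-1.29) for 2 minus 3 months, and outside the pairing at 1 month it changed no other call of a tested member.

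Signs turned only in members that were not called. In F/M at 1 month En1 was 0.12 under limma-voom and 0.06 without both heterozygous control libraries, an alternative chosen after seeing the data. The 1-month regional difference of Pax7 was 0 without the filter, 0.16 under limma-voom, 0.06 with the sex label and 0.1 with the replicate block. The 1-month difference between regional effects was 0 for En1 under limma-voom and 0.25 for Pax7 without both heterozygotes. Pax7 in F/M at 3 months was -0.01 under RLE and DESeq2 and -0.03 with the sex label. In Cb at 3 months limma-voom gave 0.16 for Pax5 and 0.15 for Pax7, the replicate block 0.04 for Pax5, and leaving out both libraries numbered 3 gave -0.06 for Evx2 and -0.01 for En1. Under limma-voom Pax7 was -0.37 for the 3-month regional difference and 0.11 for the difference between regional effects.

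Leaving out each library in turn, the members called ranged from 0 to 4 in F/M at 2 months, and from 0 to 1 for the Cb effect at 2 months minus 1 month and minus 3 months. At 2 months, as descriptions, Evx2 in F/M ranged from 2.89 to 5.48, the regional difference from 5.23 to 7.51 for Evx2 and 4.07 to 4.42 for Tfap2b, and the difference between regional effects from -6.25 to -3.66 for Evx2, -3.09 to -2.12 for Pax5 and -7.76 to -4.79 for Pax7. The values of Evx2 that were largest in size came without the F/M control numbered 3, the one with a read. The following log2 values changed sign. At 1 month they ranged in F/M from -4.41 to 0.75 for Evx2, -1.33 to 0.38 for Pax5, -0.98 to 0.64 for Pax7 and -0.72 to 0.31 for En1. In Cb at 1 month they ranged from -0.48 to 0.45 for Pax5, -0.64 to 0.08 for Pax7, -0.01 to 0.32 for En1 and -0.21 to 0.06 for En2. In Cb at 2 months they ranged from -0.09 to 0.13 for Tfap2b and -0.14 to 0.01 for En2. At 3 months they ranged in F/M from -0.12 to 0.35 for Tfap2b and -0.24 to 0.13 for Pax7. In Cb at 3 months they ranged from -0.02 to 0.71 for Evx2, -0.14 to 0.1 for Tfap2b, -0.47 to 0.34 for Pax5, -0.58 to 0.47 for Pax7, -0.16 to 0.32 for En1 and -0.03 to 0.09 for En2.

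The regional difference of Pax7 ranged from -0.3 to 0.71 at 1 month and from -0.26 to 0.79 at 3 months. The difference between regional effects at 1 month ranged from -1.05 to 4.11 for Evx2, -0.14 to 0.38 for Tfap2b, -0.4 to 1.32 for Pax5, -0.94 to 0.68 for Pax7 and -0.2 to 0.83 for En1, and at 3 months from -0.39 to 0.09 for Tfap2b and -0.58 to 0.46 for Pax7. The Cb effect at 2 months minus 1 month ranged from -0.77 to 0.17 for Evx2 and -0.14 to 0.13 for En2, and minus 3 months from -0.07 to 0.17 for Tfap2b.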
